A study of Artemia franciscana with 14 samples.

Results

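The genes described here are the 140 that varied least between single embryos of the brine shrimp *Artemia franciscana*, out of 19421 genes in the count table, and they are described as candidate reference genes. They were chosen by their levels in CPM, the raw count of a gene divided by the total of its library and multiplied by 1000000. A gene had to average 30 to 200 CPM over the 12 embryos, which 2897 genes did. It had to reach at least 10 CPM in each of the 2 adults, which 1497 of these did, and its levels in the embryo stages had to overlap, which left 1364. These were ranked by the coefficient of variation (CV), the SD over the mean of the 12 embryos, and the 150 with the lowest CV were kept. Of the 150, 10 were left out because their numbers lay between jg8898 and jg9983, among them the gene with the lowest CV of all, jg9355. The other 1130 genes that met every condition outside that range of numbers are called the other candidates.

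All animals were wild type, and no agent or allele was compared. Whole single embryos at 4 days post fertilization (dpf) comprised 3 females and 3 males, and those at 1–2 dpf comprised 3 females and 3 males, of which 1 female and 1 male were collected at 1 dpf and the rest at 2 dpf. The 2 remaining libraries came from an adult of each sex, so differences between adults, and between adults and embryos, have no replicate check. For adults the methods of the study describe dissection and removal of the germline, which the labels of these 2 libraries do not mention, so whether gonads were included is not known here. The authors assigned embryo sex from expressed variants on the sex chromosomes, and they count single embryos as biological replicates, 3 per sex and stage. Embryos were dissected from mated females, and the labels do not say which embryos shared a mother. Some may therefore be siblings.

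A reference gene is one against which the level of another gene is read, in quantitative PCR for example, so its own level should stay the same across the samples compared. Such genes are often taken from functions that every cell needs, but a gene that is steady in one tissue or stage can differ in another, and several are usually combined. The table names genes by number and gives no function. Of the members only jg8800, SIRT1, a deacetylase that removes acetyl groups from proteins including histones, is known here by a name. The tissue could therefore not be checked against cell type markers.

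Library totals ran between 2669131 and 7463397 counts in the embryos, with 3342959 for the adult female and 1840926 for the male. In the female replicate 12 at 1–2 dpf 6414 genes had a count, against 9481 to 11352 in the other 11 embryos. That library stood apart, and it is named wherever a result below turns on it. The adult female had 7399 genes with a count and the adult male 7064. According to the study, the RNA input of adults was set to a fixed amount, while that of embryos was below detection. Whether this bears on the ratios of adults to embryos was not tested. A count of 3 was worth 0.402 to 1.12 CPM in the embryos, and the lowest count of any member in any embryo was 59.

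The members were selected on their spread, so the following values describe the choice. Their CV ran between 11.9% and 25.2% with a median of 21.6%, while the other candidates had a median of 43.0%. If each read were an independent molecule, counting alone would give the members a CV of 4.32% at the median, or 4.55% of their variance. Amplified reads are not independent molecules, so these values understate the counting error. The ratio of the highest to the lowest embryo had a median of 2.12 and ran between 1.41 and 3.12, so even the steadiest of these genes were not flat. At 4 dpf the median CV of the members was 17.6%, and at 1–2 dpf it was 21.8%.

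The limit of 150 genes did not fall at a gap in the ranking. The last members inside it, jg10054, jg22116 and jg2130, had a CV of 25.1%, 25.2% and 25.2%. The first genes outside it, jg14922, jg17128 and jg10899, each had a CV of 25.2%.

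Members were more frequent among the more abundant candidates. They made up 46 of the 154 candidates with a mean of 150 to 200 CPM, or 29.9%, and 15 of the 510 with a mean of 30 to 60 CPM, or 2.94%. Their own means had a median of 122 CPM, between 30.4 CPM for jg2475 and 200 CPM for jg10593, while the other candidates had a median of 67.7 CPM. A comparison of members with other candidates is thus also one of higher with lower means, and it is repeated below for genes of like level where it matters.

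**Figure D1:**
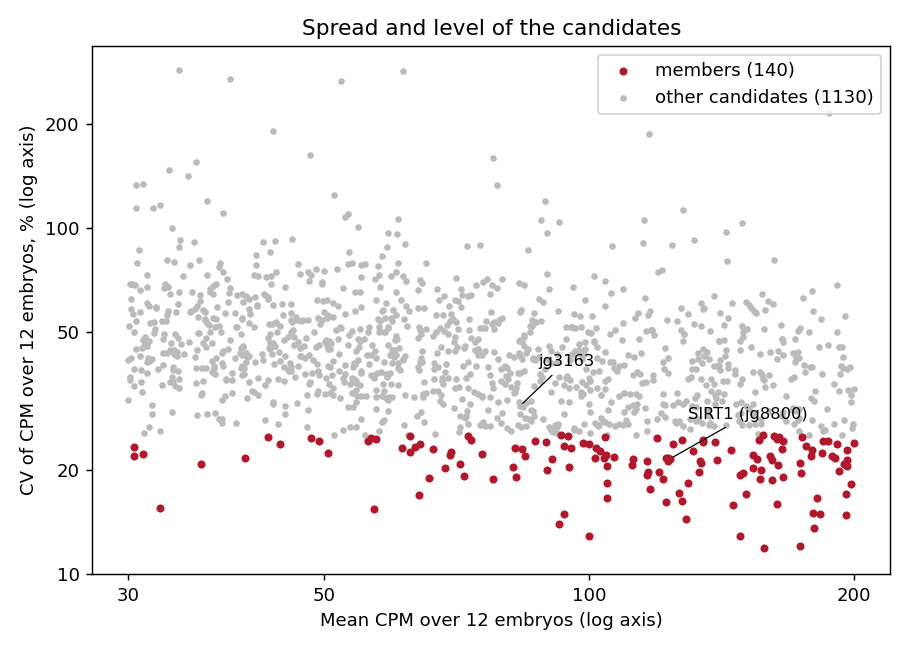
CV of CPM over the 12 embryos, in percent, against mean CPM, both on log axes, for the 140 members and the 1130 other candidates, each point a gene. The members form the lower edge of the cloud, at 25.2% or less, and are densest near 200 CPM. SIRT1 (jg8800) lies inside the list and jg3163 above it.

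The gene with the lowest CV among the members was jg17523. It had 141, 158 and 183 CPM as its lowest, median and highest value at 4 dpf, against 138, 146 and 196 CPM at 1–2 dpf, and 62.5 CPM in the adult female and 97.8 CPM in the adult male. Its CV over the embryos was 11.9%. The stages overlapped almost throughout, and both adults lay below every embryo.

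Next in rank, jg21419 had a CV of 12.1%. Its levels were 143, 160 and 197 CPM at 4 dpf, against 171, 180 and 216 CPM at 1–2 dpf. The adults had 21.8 CPM in the female and 29.9 CPM in the male. The gene thus combined one of the narrowest ranges in the embryos with a log2 ratio of adults to embryos of -2.70, on the log2(CPM + 1) scale used here for all ratios with adults.

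In jg16814 the embryos were again close, with 92.5, 97.4 and 123 CPM at 4 dpf, against 83.0, 96.3 and 120 CPM at 1–2 dpf. The adults differed from each other, with 63.4 CPM in the female and 23.4 CPM in the male. The opposite order held for jg16077. It had 139, 156 and 193 CPM at 4 dpf, against 127, 137 and 160 CPM at 1–2 dpf, with 31.4 CPM in the adult female and 127 CPM in the adult male. Both genes had a CV of 12.9% over the embryos.

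The list of the 6 lowest CVs ended with jg6271, at 13.6%, and jg20227, at 13.96%. For jg6271 the values were 144, 173 and 190 CPM at 4 dpf, against 139, 190 and 233 CPM at 1–2 dpf, and 99.6 CPM in the adult female and 72.2 CPM in the adult male. For jg20227 they were 78.9, 87.5 and 103 CPM at 4 dpf, against 72.9, 94.7 and 113 CPM at 1–2 dpf, and 39.8 CPM in the adult female and 24.99 CPM in the adult male. In both the range of the 4 dpf embryos lay wholly within that of the 1–2 dpf embryos.

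SIRT1 (jg8800) stood in the middle of the list with a CV of 21.6%. It had 92.6, 129 and 135 CPM at 4 dpf, against 74.2, 132 and 162 CPM at 1–2 dpf. The adult female had 95.4 CPM (exact Poisson 95% interval 85.2 to 106, which covers counting error only) and the adult male 30.4 CPM (23.0 to 39.5). The stages overlapped, the adult female lay within the embryos and the adult male below all of them. In the study's quantitative PCR, SIRT1 was higher in old than in young adult females. Its low CV between embryos therefore does not make it a reference gene for adults.

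**Figure D2:**
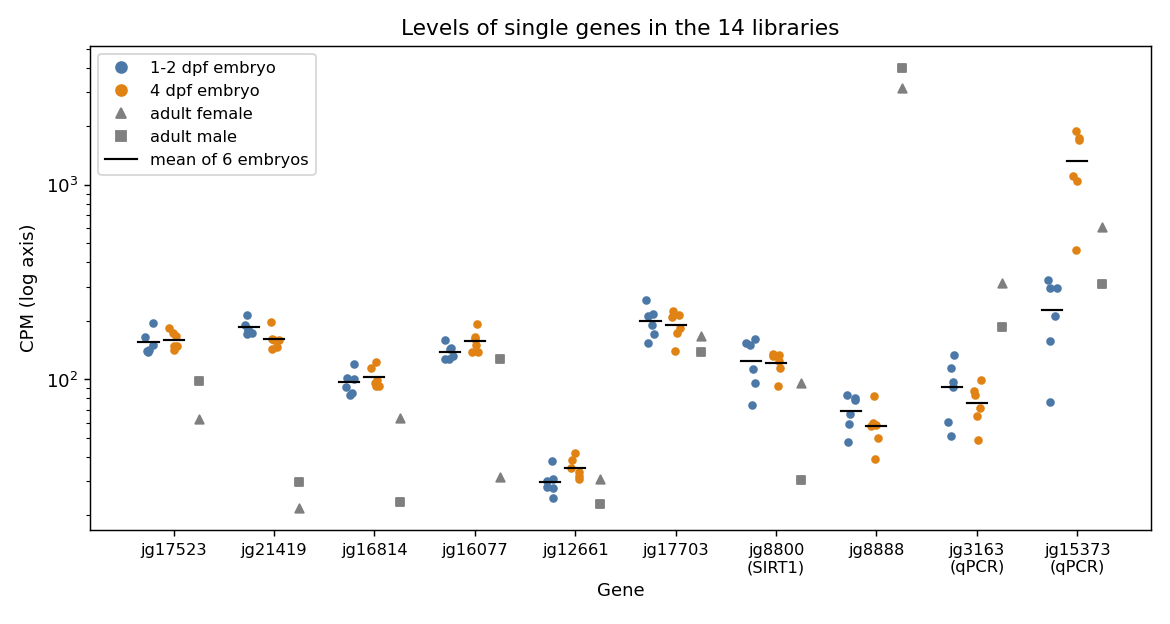
CPM, on a log axis, of 10 genes in the 14 libraries: circles are single embryos at 1–2 dpf and 4 dpf, with a line at the mean of each 6, and the triangle and square are the adult female and the adult male. The first 8 genes are members, and jg3163 and jg15373 are the reference genes of the study's quantitative PCR. In jg15373 the 4 dpf embryos lie above all 1–2 dpf embryos.

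The study itself used jg15373 and jg3163 as reference genes for quantitative PCR, in young and old adults and not in embryos. Neither is a member. In these embryos jg15373 had 465, 1401 and 1895 CPM at 4 dpf, against 76.4, 253 and 324 CPM at 1–2 dpf, with no overlap between the stages. It was higher at 4 dpf by 2.51 on the log2 scale (SE 0.37, adjusted p = 0.000557 with edgeR's quasi-likelihood test). Its CV over the embryos was 88.3%, and its mean of 776 CPM lay above the window in which members were sought. The adult female had 608 CPM and the adult male 308 CPM of this gene, and its spread among adults cannot be had from 1 library of each sex.

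The other quantitative PCR gene, jg3163, met the conditions but ranked 323rd by CV, at 30.6%. Its levels were 48.9, 77.4 and 99.2 CPM at 4 dpf, against 51.0, 94.2 and 133 CPM at 1–2 dpf. The stages overlapped, and the difference of -0.34 on the log2 scale did not pass the test (SE 0.27, adjusted p = 0.531, edgeR). Both adults were above every embryo, with 313 CPM in the female and 187 CPM in the male.

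Other genes that the study names, parts of the MSL complex and acetyltransferases, were also read for their steadiness. DHX9/MLE (jg10843), an RNA helicase, came closest, with a CV of 25.9% and 150, 203 and 271 CPM at 4 dpf, against 113, 192 and 259 CPM at 1–2 dpf. It failed the condition on the adults, with a count of 0 in the adult female, which by the limit of 3 counts used here allows up to 0.897 CPM, and 95.1 CPM in the adult male. MSL3/MRG15 (jg12255), a chromodomain protein, had a CV of 31.7%, GCN5 (jg16372), a histone acetyltransferase, 44.8%, and CBP (jg3149), another acetyltransferase, 84.5%. MOF (jg3349), the acetyltransferase of histone H4 lysine 16, had a mean of 27.9 CPM and a CV of 47.3%. MSL2 (jg13090) and TIP60 (jg7034) averaged 5.70 and 7.58 CPM over the embryos, far below the window.

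In the comparison of the stages, 669 of 8362 genes (8.0%) differed between 4 dpf and 1–2 dpf at an adjusted p under 0.05 in edgeR, 373 of them higher and 296 lower at 4 dpf. Of the members 0 of 140 passed, 4 had an unadjusted p under 0.05, and DESeq2 called 1, jg3680. Nothing is read from this count, since members were chosen for overlapping stages and a low CV. Their log2 fold changes lay between -0.65 and 0.33 with a median of -0.12, and the smallest adjusted p in edgeR was 0.0934, for jg3756. These fold changes are on TMM scaling, while the members were chosen on library totals. On the totals the geometric mean of the members averaged 107 CPM at 4 dpf and 108 CPM at 1–2 dpf.

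Between female and male embryos, with stage as a covariate, 2 of 9290 genes (0.0215%) passed in edgeR, and 483 had an unadjusted p under 0.05. Of the members 0 of 140 passed, 5 had an unadjusted p under 0.05, and DESeq2 called 0. The low CV bounds this contrast too, so it is a description. Log2 fold changes, female over male, ran between -0.39 and 0.58.

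Whether the choice carried over to an embryo it had not used was asked by repeating it 12 times, each time on 11 embryos, and reading the embryo left out against the mean of the others. In that embryo 55.7% to 92.8% of the chosen genes lay within 1.5-fold of the mean, with a median of 84.3%, against 33.3% to 74.8% of the other candidates, with a median of 65.9%. The share was higher in the chosen genes in 12 of 12 embryos. In the female replicates 9 and 12 at 1–2 dpf the median log2 ratio of the other candidates to that mean was -0.44 and -0.46. For the chosen genes it was 0.09 and 0.07. The gaps in these embryos thus include a shift of the other candidates as a whole. The rounds share embryos and are not independent, so no test is given.

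The chosen genes also had the higher share among genes of like level. With means of 100 to 200 CPM, 63.3% to 94.5% of the chosen genes lay within 1.5-fold, against 38.1% to 81.9% of the other candidates, and the share was again higher in 12 of 12 embryos. The median distance from the mean, without regard to sign, was 0.17 to 0.42 on the log2 scale for the chosen genes of this band and 0.28 to 0.85 for the other candidates.

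**Figure D3:**
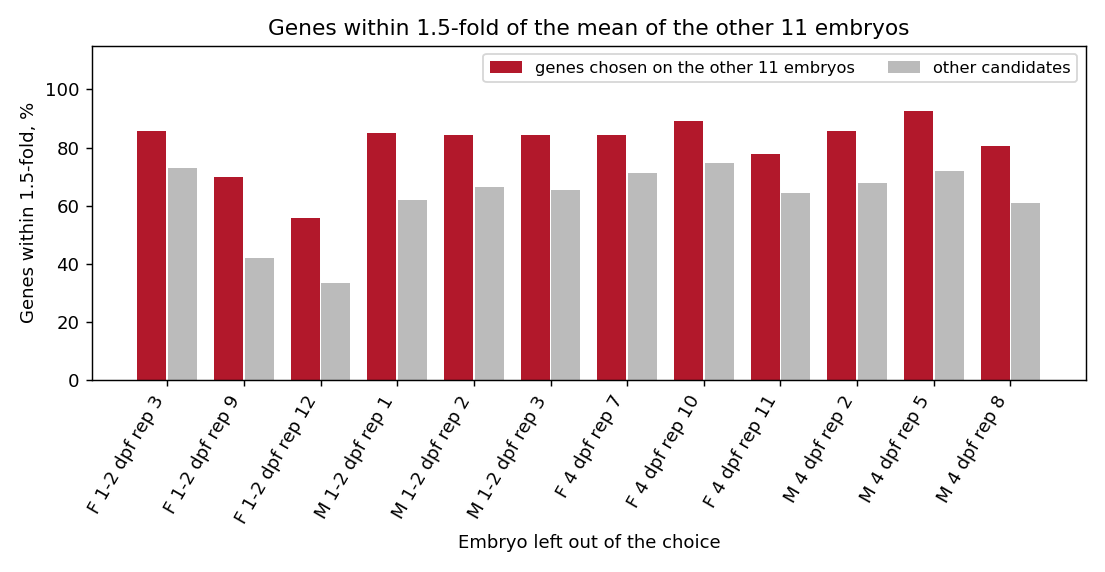
Percent of genes whose level in the embryo left out lay within 1.5-fold of the mean of the other 11 embryos, for genes chosen on those 11 (left bar) and the other candidates (right bar). The chosen genes have the higher bar in all 12 embryos, and both bars are lowest for the female replicate 12 at 1–2 dpf, at 55.7% and 33.3%.

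Membership itself was less stable than this. Of the 140 members, 78 were chosen in all 12 rounds, 21 in 11 rounds, and 41 in 10 or fewer. Without the female replicate 12 at 1–2 dpf 105 members were chosen again, and without the female replicate 9 of that stage 109, the lowest numbers of the 12. The members jg10593, jg5136, jg10159 and jg6121 were chosen in as few as 3 rounds.

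A stricter reading chose genes in one stage and read them in the other. The 137 genes chosen on the 4 dpf embryos alone had a median CV of 12.2% there, against 30.1% for the other candidates. At 1–2 dpf the same genes had 36.5%, against 44.4%. Without the female replicate 12 at 1–2 dpf the chosen genes had 31.3% there, the lowest value with an embryo left out. The 143 genes chosen on the 1–2 dpf embryos had a median CV of 17.7% there, against 44.9% for the other candidates, and at 4 dpf 23.8%, against 28.8%. The gap was thus smaller in the stage that the choice had not used. Among genes of 100 to 200 CPM those chosen at 4 dpf had 31.3% at 1–2 dpf, against 38.5% for the other candidates, and those chosen at 1–2 dpf had 20.5% at 4 dpf, against 22.3%. The lists shared 21 genes, 15.3% of the first and 14.7% of the second, and 20 of these are members. Of the 1087 genes that were candidates in both stages, 116 (10.7%) were on the first list and 125 (11.5%) on the second. The shares of 15.3% and 14.7% are of the full lists, which also hold genes that could not be shared. The shared genes include jg17523, jg21419, jg16814, jg16077, jg6271, jg20227 and jg10804, the 7 members with the lowest CV. Members were ranked by their CV over the embryos of both stages. That most shared genes are members, and that these 7 are among them, follows largely from the choice.

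As a set, the members gave each embryo nearly the same scale. The median of their ratios to their own means ran between 0.933 and 1.05 over the 12 embryos, and they held 1.59% to 1.77% of all counts of an embryo. The scale is tied to the library totals by which the genes were chosen. TMM factors, which edgeR derives from the bulk of genes, ran between 0.793 and 1.16 over the same embryos, and size factors of the kind DESeq2 uses (relative log expression), taken relative to the totals, between 0.873 and 1.14.

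The measures parted most in the female replicate 9 at 1–2 dpf. Its TMM factor was 0.793, while the median ratio of the members was 1.05. In the male replicate 1 of that stage the TMM factor was 1.16 and the median ratio of the members 1.02. When the choice was repeated on CPM scaled by TMM, 99 of the 140 members were chosen again, and with DESeq2's size factors 108. With upper quartile scaling it was 62, so the list depends on what is taken as the total.

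**Figure D4:**
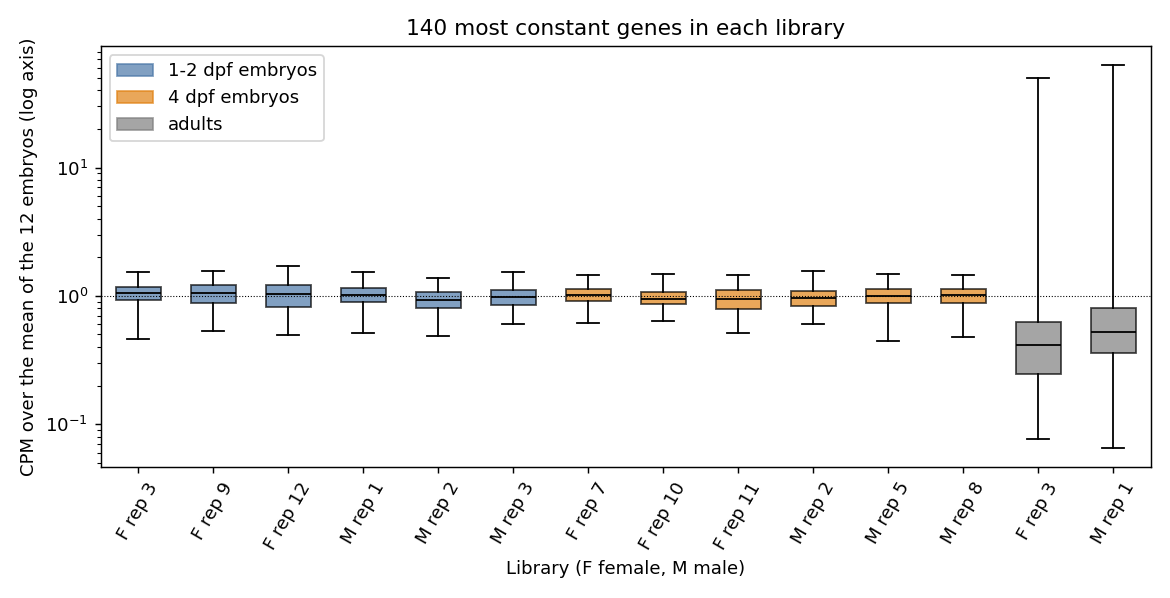
CPM of the 140 members over their own mean in the 12 embryos, on a log axis, in each of the 14 libraries, with the median, the quartiles and the full range. The medians of the embryos lie between 0.933 and 1.05, and those of the adult female and adult male at 0.411 and 0.525.

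Single members strayed from their mean in every embryo, and most often in 2 females at 1–2 dpf. In the female replicate 12 at 1–2 dpf 20 members lay outside 1.5-fold of their own mean, and 24 had their highest embryo there. In the female replicate 9 it was 13, and in the male replicate 5 at 4 dpf only 1. No member exceeded its mean by more than 2-fold in any embryo, but with CVs this low over 12 embryos none could have. In 5 embryos 1 or 2 members lay more than 2-fold below their mean, 6 values in all.

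The members did not move as a block. Over their 9730 pairs the correlation of log2 levels across the 12 embryos, which share library totals and depth, had a median of 0.02 and ran between -0.90 and 0.96. The first principal component held 21.0% of the variance and set apart the female replicates 12 and 9 at 1–2 dpf, and the second, with 13.5%, separated the stages except for the female replicate 12. The pairwise stability value, the mean SD of the log2 ratio of a gene to each other member, was lowest for jg20227, jg21419 and jg17523, at 0.349 to 0.350, and had a median of 0.434.

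Combining members lowered the spread. The CV over the embryos was 11.9% for jg17523 alone, 5.97% for the geometric mean of the 3 members with the lowest CV, 3.49% for that of 5 and 3.30% for that of all 140. Beyond 5 genes little was gained. These genes were chosen on the same embryos, so the values are a description of them.

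The adults were used in the choice only through the minimum of 10 CPM. Between the adult female and the adult male 86 of the 140 members lay within 2-fold, and 54 differed by more, 13 higher and 41 lower in the female. As shares these were 9.29% and 29.3%, against 13.8% higher and 26.7% lower among all candidates. The split moved with the scaling, to 20 higher and 29 lower with TMM and 19 higher and 30 lower with DESeq2's size factors. More of these members were lower in the female under each scaling. Of the other candidates 162 were higher and 298 lower on the library totals. The order of these turned with the scaling, to 272 higher and 178 lower with TMM and 257 and 195 with DESeq2's size factors. The median log2 ratio of female to male over all members changed sign, from -0.33 on the library totals to 0.10 and 0.05. The members within 2-fold were 61.4%, against 59.5% of all 1270 candidates, of which 514 (40.5%) differed by more. That share was near the background. With no minimum in the adults, 50.4% of the genes chosen lay within 2-fold, against 42.7% of the other candidates.

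The members that differed most between the adults varied little between embryos by the choice. The adult female had 91.5 CPM of jg20201 and the adult male 11.4 CPM, while the embryos of this gene averaged 174 ± 36.5 CPM (SD, n = 12). Likewise jg1287 had 119 CPM in the adult female and 20.1 CPM in the adult male, with 72.8 ± 18.2 CPM in the embryos. In the other direction, jg5670 had 14.96 CPM in the adult female and 173 CPM in the adult male, and jg18451 had 18.2 CPM in the adult female and 137 CPM in the adult male. These 4 were picked for their difference between the same 2 libraries.

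Against the embryos, the adults were lower for most members. The median log2 ratio of the mean of the adults to the mean of the embryos was -0.99 for the members and -0.61 for the other candidates. Both adults lay over 2-fold below the embryo mean for 47 members (33.6%), against 21.2% of all candidates. Both lay over 2-fold above it for 1 member, against 4.57%. The difference was not the same at every level. Among genes of 150 to 200 CPM the medians were -1.31 for the members and -1.04 for the other candidates, and among genes of 100 to 150 CPM they were -0.94 for the members and -1.08 for the other candidates. Among genes of 60 to 100 CPM they were -0.79 for the members and -0.77 for the other candidates, and among genes of 30 to 60 CPM -0.61 for the members and -0.18 for the other candidates. The members were thus the lower ones in 3 of 4 bands, and by a small margin in one of these.

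The size of the difference also rested on the scaling. With TMM the median of the members was -0.69 and that of the other candidates -0.27, and with DESeq2's size factors they were -0.13 and 0.27. The members kept within 2-fold in both adults numbered 31 (22.1%) on the library totals, against 30.3% of the other candidates. With DESeq2's size factors they numbered 72 (51.4%), against 43.8%, so the order of the shares changed with the scaling. The adult condition bears on it as well. Without the minimum of 10 CPM the 137 genes chosen had a median of -1.24 and the other candidates -1.26.

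**Figure D5:**
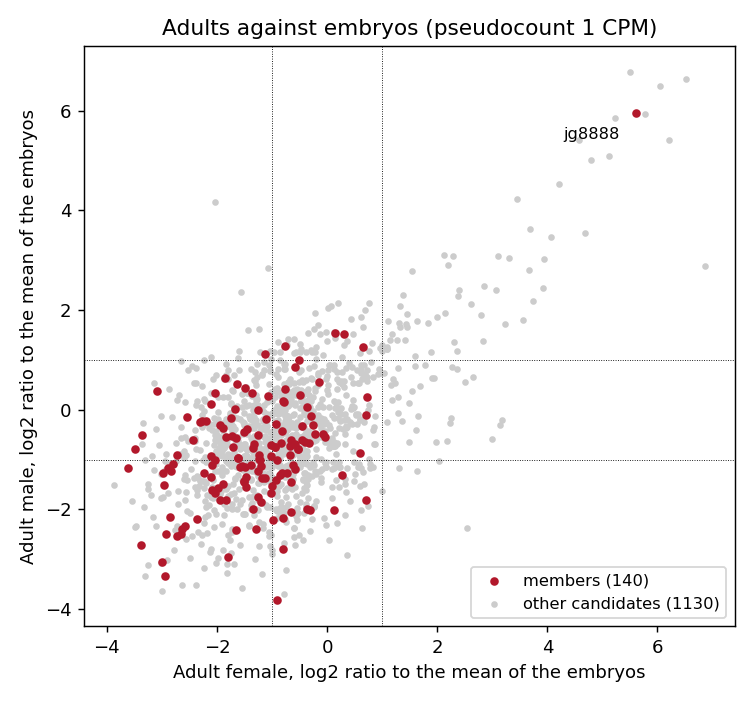
Log2 ratio of the adult male against that of the adult female, each to the mean of the 12 embryos on the log2(CPM + 1) scale, for the 140 members and the 1130 other candidates, each point a gene. Dotted lines mark 2-fold. Most members lie below 0 on both axes, and jg8888 stands far above the rest of the members.

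The exception upward was jg8888. It had 38.9, 57.9 and 82.7 CPM at 4 dpf, against 47.8, 72.2 and 83.5 CPM at 1–2 dpf, a CV of 23.3%. The adult female had 3139 CPM and the adult male 3991 CPM, a log2 ratio of 5.79 to the embryos. A gene among the steadiest between embryos was thus one of the strongest differences with the adults, and its count in the adults was 10492 and 7347. The next largest ratios were 1.03 for jg1334 and 1.01 for jg8002.

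At the other end, jg17937 had a log2 ratio of adults to embryos of -3.12, with 16.8 CPM in the adult female and 12.5 CPM in the adult male, against 135 ± 32.4 CPM in the embryos (SD, n = 12). The adults of jg10311 had 21.5 and 20.6 CPM, against 180 ± 26.9 CPM, and those of jg18103 had 14.1 CPM in the female and 22.8 CPM in the male, against 156 ± 38 CPM. All 3 stayed above the 10 CPM that the choice required.

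The members steadiest over all 14 libraries were found by the CV over embryos and adults together. For jg12661 it was 16.8%, with 30.8, 34.2 and 42.0 CPM at 4 dpf, against 24.7, 29.0 and 38.1 CPM at 1–2 dpf, and 30.8 CPM in the adult female and 22.8 CPM in the adult male. For jg17703 it was 18.3%, with 140, 196 and 226 CPM at 4 dpf, against 153, 201 and 257 CPM at 1–2 dpf, and 168 CPM in the adult female and 139 CPM in the adult male. The adult female lay inside the embryo range for both genes. The adult male was below every embryo for both. Next came jg10804 at 19.7%, jg1560 at 19.8% and jg1442 at 20.3%, while the members had a median of 30.4%.

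Both adults lay inside the range of the 12 embryos for 8 members (5.71%), namely jg16516, jg1442, jg11015, jg3451, jg8073, jg8586, jg263 and jg22116, and over all candidates for 39.4%. Both lay below the lowest embryo for 79 members, against 20.2% of candidates. The embryo range of a member is narrow by the choice, so these shares cannot be read against each other. Of the 8, jg1442 had the lowest CV over the 14 libraries, with 47.7, 73.6 and 91.4 CPM at 4 dpf, against 58.2, 73.3 and 90.5 CPM at 1–2 dpf, and 58.0 CPM in the adult female and 65.7 CPM in the adult male.

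The members were spread along the numbering of genes, between jg263 and jg22116, with a median step of 102 numbers from one member to the next. Of the 139 neighbouring pairs 9 lay within 10 numbers of each other. The same count was not taken for the other candidates, so nothing is read from it. The table gives no coordinates for these genes.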

How the data were processed

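RNA of 12 single embryos and 2 adults was sequenced from libraries with unique molecular identifiers. The authors deposited raw counts per gene, which the Cogent pipeline produced from trimmed and mapped reads. They were not normalized, and all reads were counted rather than unique molecules. The trailing mark of each gene identifier was dropped. Columns were assigned to samples by barcode, and 0 columns stayed without a sample. CPM were computed from column totals. Members and lists were chosen with earlier results of these data known.

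Genes were compared in R 4.3.3 with edgeR 4.0.16 (filterByExpr, TMM, quasi-likelihood F test, Benjamini-Hochberg, threshold 0.05) and DESeq2 1.42.0 as the alternative. SEs are the absolute log2 fold change over the square root of F. Other values were computed in Python 3.11.15 with pandas 2.3.3, numpy 2.4.6 and scipy 1.17.1, and drawn with matplotlib 3.10.9. The scripts were tested on simulated data. Adults have no test. Alternatives were other scalings, measures of spread, pseudocounts, folds and conditions, and each embryo left out.

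Single genes were named by rule: the 6 lowest CVs, 3 genes on each side of the limit, the 5 lowest CVs over 14 libraries, the 3 largest and 3 smallest ratios of adults to embryos, 2 per direction between the adults, the highest and lowest mean, the 3 lowest pairwise values, and genes the study names. Genes named beyond these were singled out after their values were seen. Depth per library limits each value through its counting error.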

Additional observations from a re-analysis of the deposited data

Results flagged for a closer look

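A single embryo stood far from the other 5 of its stage in 7 of 80 groups tested (8.75%), and all 7 were of named genes. The measure was Dixon's criterion for 6 samples, 0.625, which chance exceeds in about 5% of groups. Female replicate 7 at 4 dpf was high for jg21419, at 197 CPM, where the others had 143 to 162 CPM, and for jg22116, at 124 CPM, where the others had 69.7 to 83.6 CPM. Male replicate 2 at 4 dpf was low for jg10311, at 145 CPM, where the others had 179 to 190 CPM, and high for jg10593, at 284 CPM, where the others had 180 to 216 CPM. Male replicate 1 at 1–2 dpf was high for jg1560, at 117 CPM, where the others had 70.2 to 82.4 CPM, and for CBP (jg3149), at 98.0 CPM, where the others had 0 to 26.4 CPM. Female replicate 12 at 1–2 dpf was low for jg1334, at 41.8 CPM, where the others had 71.8 to 87.7 CPM.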

How the results depend on the processing

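No paired analysis was possible because the libraries came from separate animals and the labels give no pairs. DESeq2 called 1397 genes between the stages, and edgeR 489 to 759 with an embryo left out; of the members it called 1, jg17657, without male replicate 1 at 1–2 dpf. Between the sexes DESeq2 called 29 genes, edgeR 0 at 1–2 dpf alone, 0 at 4 dpf alone, and 0 to 4 with an embryo left out. The higher level of jg15373 at 4 dpf passed in 16 of 16 alternatives, with a log2 fold change of 2.33 to 2.67. Members chosen again numbered 62 with upper quartile scaling, 67 by the median absolute deviation and 105 to 126 with an embryo left out. The median CV was 27.8% with upper quartile scaling and 20.5% to 21.9% with an embryo left out. Within 2-fold of the embryos in both adults were 72 members with DESeq2's size factors (51.4%, against 43.8% of the other candidates). With an embryo left out there were 30 to 33, and at 1.5-fold 9. Of the genes chosen without a minimum in the adults 18 lay within 2-fold (13.1%, against 15.4% of the other candidates). The median log2 ratio of adults to embryos was -0.69 with TMM, -0.13 with DESeq2's size factors, -1.24 without that minimum, -1.15 for means of 100 to 200 CPM, and -1.01 to -0.98 with an embryo left out. The absence of the minimum and the band of means were added after seeing the data. Between the adults the median, -0.33, became 0.10 with TMM and 0.050 with DESeq2's size factors. The cause of these changes was not tested. With an embryo left out, genes chosen at 1–2 dpf had a median CV of 22.1% to 25.4% at 4 dpf, and genes chosen at 4 dpf 31.3% to 36.6% at 1–2 dpf. The 31.3% was without the female replicate 12 at 1–2 dpf.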
